A study of Homo sapiens with 16 samples.

Results

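HMOX1, FTH1, FTL, TFRC, SLC11A2, NCOA4, IREB2, ACO1, SLC40A1 and BLVRB, genes of iron uptake, storage and heme breakdown, were followed across 8 groups of the human fibrosarcoma line HT-1080. They were picked by symbol, and 9 of the 10 were among the 17552 genes with values. The entry of SLC40A1, the iron exporter ferroportin, was empty, so it was not analysed here. Levels are FPKM, fragments scaled to transcript length and to the mapped fragments of the library, so genes are compared per length. The groups with erastin (10 µM for 24 h, per the labels) were siDCAF8+siLSH/Erastin, siDCAF8/Erastin, oeWDR76/Erastin and siNS/Erastin. The groups without erastin were siDCAF8+siLSH, siDCAF8, oeWDR76 and siNS. Each group had 2 libraries, 16 in all. By their names, the siDCAF8 groups received siRNA against DCAF8, a substrate receptor of CRL4 ubiquitin ligases, the siDCAF8+siLSH groups also siRNA against LSH, a chromatin remodeler encoded by HELLS, and the oeWDR76 groups overexpressed WDR76, a WD40-repeat protein. The siNS cells served as the reference for all 3 genotypes, since no empty-vector group accompanied oeWDR76. The labels do not state whether paired libraries of a group are separate cultures, so p-values measure the spread between libraries, which may be technical.

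Cells take up transferrin-bound iron through the transferrin receptor, release it from endosomes through the metal transporter DMT1, and store the excess in cages of ferritin heavy and light chains. Iron regulatory proteins bind hairpins called iron-responsive elements when iron is scarce, which blocks translation of the ferritin mRNAs and protects the transferrin receptor mRNA from decay. Heme oxygenase opens the heme ring and frees its iron, and biliverdin reductases act on the product. Erastin blocks cystine import by system xc-, and HT-1080 cells then die by ferroptosis, a death that depends on iron and lipid peroxidation.

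The iron-responsive elements are shown because they are what ties the ferritin, transferrin receptor and regulator genes together. They were found on the sense strand of the longest protein-coding transcript of each gene in GENCODE v29 (GRCh38) by the motif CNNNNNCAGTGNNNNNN, in which the 5 bases on either side of the loop of 6 (CAGTGN) pair with each other (G-T pairs allowed). Each window has 28 bases, 5′ to 3′, with the loop in capitals.
FTH1 5′ UTR, chr11:61967574-61967601, minus strand: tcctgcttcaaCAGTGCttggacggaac
FTL 5′ UTR, chr19:48965336-48965363, plus strand: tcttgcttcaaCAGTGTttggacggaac
TFRC 3′ UTR, element 1, chr3:196050979-196051006, minus strand: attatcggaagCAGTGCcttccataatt
TFRC 3′ UTR, element 2, chr3:196050575-196050602, minus strand: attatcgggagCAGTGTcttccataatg
TFRC 3′ UTR, element 3, chr3:196050510-196050537, minus strand: tgtatcggagaCAGTGAtctccatatgt
TFRC 3′ UTR, element 4, chr3:196050463-196050490, minus strand: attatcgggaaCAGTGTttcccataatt
SLC40A1 5′ UTR, chr2:189580661-189580688, minus strand: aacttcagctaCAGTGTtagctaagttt
The FTH1 and FTL windows differ at 2 of the 28 bases. Of 19669 genes searched, 260 (1.32%) held a match, and TFRC was the 1 gene with 4 or more. The motif was found in 4 of the 10 iron genes, and in the other 6 no match with these pairs was in the transcript searched. Other transcripts of these genes, and hairpins with imperfect pairing, were not searched. A match is a run of letters and was not tested as a binding site.

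Each targeted gene moved as its own label says, with 1 limit for HELLS, but the 3 genes also differed in groups that did not target them. DCAF8 differed from siNS libraries by -1.28 on the log2 scale in untreated siDCAF8+siLSH libraries and by -1.64 in siDCAF8 libraries, and WDR76 by 6.0 in oeWDR76 libraries. DCAF8 also differed by -0.31 in untreated oeWDR76 libraries (limma adjusted p = 0.00265). WDR76 was higher by 1.04 in untreated siDCAF8+siLSH libraries (adjusted p = 3.21e-07) and by 0.55 in siDCAF8 libraries (adjusted p = 0.000320). HELLS was higher than in siNS by 1.24 in untreated oeWDR76 libraries (adjusted p = 1.39e-10) and by 0.70 in siDCAF8 libraries (adjusted p = 3.63e-07). HELLS averaged 4.06 ± 0.0141 FPKM in untreated siDCAF8+siLSH libraries, against 7.14 ± 0.438 in siDCAF8 and 4.01 ± 0.0495 in siNS libraries (SD, n = 2 each), so without erastin it was below siDCAF8 and level with siNS. With erastin it averaged 2.24 ± 0.170 FPKM in siDCAF8+siLSH, 5.87 ± 0.0283 in siDCAF8 and 3.485 ± 0.163 in siNS libraries. There it was below both, and differed from siNS by -0.47 (limma adjusted p = 2.14e-05). Of 8 mesenchymal markers, 7 were expressed in every library, VIM at 1273 to 2067 FPKM, while THY1 stood at 0 to 0.14 FPKM. Of 5 epithelial markers, EPCAM, CDH1, KRT19 and ESRP1 reached at most 0.55 FPKM and CLDN4 ran from 0.80 to 5.58 FPKM. Of 4 leukocyte markers, CD14 reached at most 0.28, CD3E 2.0 and PTPRC 2.05 FPKM, while CD68, a lysosomal protein not limited to leukocytes, ran from 39.1 to 161 FPKM. The erythroid markers with values, HBB and ALAS2, reached at most 0.09 FPKM. The part of CLDN4 or CD68 expressing cells in the results was not tested. Values followed GC content most in the 4 oeWDR76 libraries, with a slope of 0.185 to 0.232 log2 units per 10% GC, against -0.160 to 0.0307 in the other 12. Where a GC and length correction ended or turned a call of the oeWDR76 groups, the corrected value is given beside it.

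Per length, the ferritin chains were the most abundant of the 9 transcripts in every group. FTL averaged 1172 to 2443 FPKM over the 8 groups and FTH1 487 to 2785 FPKM. TFRC came next, at 308 to 354 FPKM in the siDCAF8 and siDCAF8+siLSH groups and 252 to 268 in the siNS groups, but at 22.2 to 23.5 FPKM in the oeWDR76 groups. HMOX1 averaged 9.76 to 215 FPKM, the widest range of the 9 as a ratio. NCOA4 (48.2 to 84.2 FPKM) and BLVRB (25.5 to 77.3 FPKM) were intermediate, and SLC11A2, IREB2 and ACO1 lay between 6.96 and 27.0 FPKM.

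**Figure D1:**
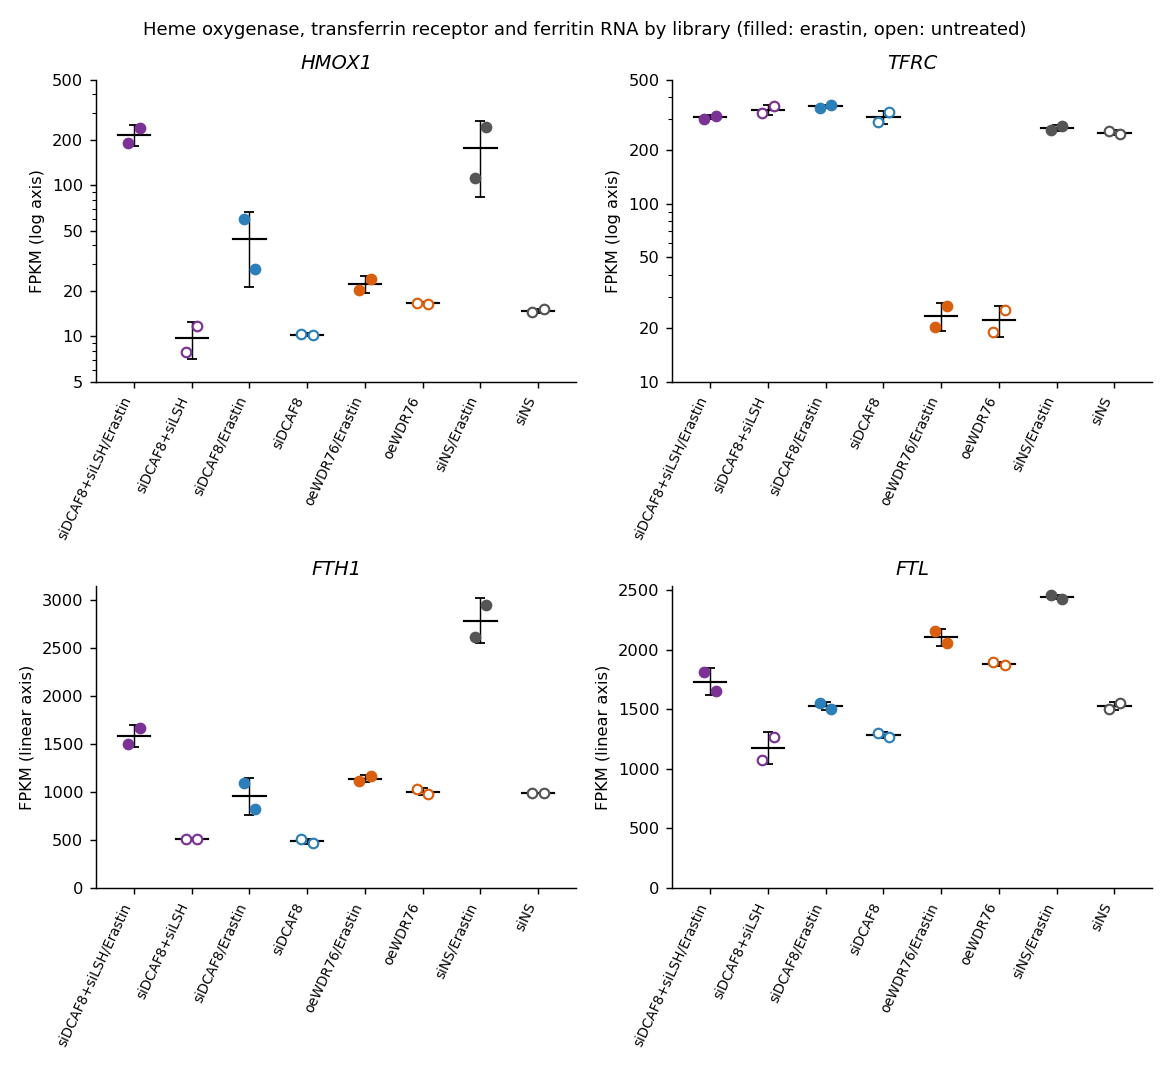
FPKM of HMOX1, TFRC (log axes), FTH1 and FTL (linear axes) in each of 16 libraries, filled with erastin and open without; bars are the mean and SD of the 2 libraries. HMOX1 reached 191 and 239 FPKM in siDCAF8+siLSH/Erastin libraries, and TFRC lay at 19.04 to 26.6 FPKM in the 4 oeWDR76 libraries.

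With erastin, RNA for heme oxygenase and the ferritin chains rose in siDCAF8+siLSH, siDCAF8 and siNS cells, and no iron gene fell in any genotype. In each comparison 11260 genes were tested with limma on log2(FPKM + 1), with Benjamini-Hochberg adjustment over all of them and a threshold of 0.05. In siDCAF8+siLSH cells 4 of 9 rose, where 20.2% of all genes passed (10.6% higher and 9.54% lower). In siDCAF8 cells 5 of 9 rose, against 40.9% of all genes (18.3% higher and 22.5% lower). In oeWDR76 cells 0 of 9 passed in limma, 1 of them at an unadjusted p under 0.05, where 1.45% of all genes passed (0.471% higher and 0.977% lower). In siNS cells 5 of 9 rose, against 37.5% of all genes (15.1% higher and 22.4% lower). The median difference of the 9 was 0.13, 0.23, 0.08 and 0.25 log2 in that order of genotypes, beside 0.01, -0.02, 0.01 and -0.03 over all genes. In siNS cells 1704 genes were higher and 2519 lower, against 2427 and 2103 with a GC and length correction and 2234 and 2058 with quantile normalization.

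HMOX1 (chr22:35381067-35394214), the inducible heme oxygenase, had the largest response of the 9 in each of the 4 genotypes. It read 191 and 239 FPKM in siDCAF8+siLSH/Erastin libraries, against 7.82 and 11.7 FPKM in siDCAF8+siLSH libraries. In siDCAF8/Erastin libraries it read 59.95 and 27.8 FPKM, against 10.4 and 10.1 FPKM in siDCAF8 libraries. These groups did not overlap, but the siDCAF8/Erastin libraries lay much further apart than the siDCAF8 libraries. The oeWDR76/Erastin libraries held 20.3 and 24.1 FPKM, against 16.7 and 16.4 FPKM in oeWDR76 libraries. The siNS/Erastin libraries held 111 and 241 FPKM, against 14.4 and 15.1 FPKM in siNS libraries. In fold terms on the log2(FPKM + 1) scale, which understates changes of low values, HMOX1 was higher with erastin 20.3-fold in siDCAF8+siLSH (log2 4.34, SE 0.30, limma adjusted p = 1.93e-07) and 3.72-fold in siDCAF8 cells (log2 1.90, SE 0.30, adjusted p = 0.000128). It was 10.5-fold higher in siNS cells (log2 3.39, SE 0.30, adjusted p = 5.06e-07). In oeWDR76 cells its difference of 0.40 (SE 0.30) did not pass (adjusted p = 0.595), although its groups did not overlap, and it passed at adjusted p = 0.0352 when only those 4 libraries were fitted.

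The size of the HMOX1 response differed between genotypes. It was 2.45 log2 units larger in siDCAF8+siLSH than in siDCAF8 cells (SE 0.42, limma adjusted p = 0.00242), a call that every alternative run kept. Its difference from the siNS response was -2.99 in oeWDR76 cells (adjusted p = 0.000373). In siDCAF8 cells that difference was -1.49 (adjusted p = 0.0194), a call that 4 single libraries could end. It was -0.94 without siNS/Erastin replicate 2 (adjusted p = 0.0837), -0.95 without siDCAF8/Erastin replicate 2 (adjusted p = 0.0909), -1.46 without siNS replicate 1 (adjusted p = 0.0645) and -1.48 without siDCAF8 replicate 1 (adjusted p = 0.0557). It was also lost when genes of low level were kept. The siDCAF8+siLSH response was 0.95 above that of siNS cells (adjusted p = 0.108), and 1.51 above it without siNS/Erastin replicate 2 (adjusted p = 0.0111). Ordered by mean with erastin, siDCAF8+siLSH and siNS cells overlapped at the top, and siDCAF8 and oeWDR76 cells lay below without overlap.

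BLVRB (chr19:40447784-40465818), biliverdin reductase B, responded to erastin in siDCAF8+siLSH cells. It read 54.2 and 50.1 FPKM in siDCAF8+siLSH/Erastin libraries, against 32.8 and 40.1 FPKM in siDCAF8+siLSH libraries (log2 0.51, SE 0.07, limma adjusted p = 0.000163). In the other genotypes its difference was 0.01 to 0.08 log2 and did not pass. After the GC and length correction it was 0.43 in siDCAF8+siLSH cells, 0.21 in siDCAF8 cells, which then passed (adjusted p = 0.0265), and 0.15 in siNS cells (adjusted p = 0.0911). The siDCAF8+siLSH response was larger than that of siNS cells by 0.50 (adjusted p = 0.00292) and than that of siDCAF8 cells by 0.49 (adjusted p = 0.00634). After the correction the difference from siNS cells was 0.28 (adjusted p = 0.0420) and that from siDCAF8 cells 0.22 (adjusted p = 0.218). BLVRB is the most GC-rich of the 9, at 62.2%. Across all genes, the response difference of siDCAF8+siLSH against siDCAF8 cells correlated with GC content at r = 0.712. That of siDCAF8+siLSH against siNS cells correlated with it at r = 0.354. Both are across genes, which are not replicates.

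**Figure D2:**
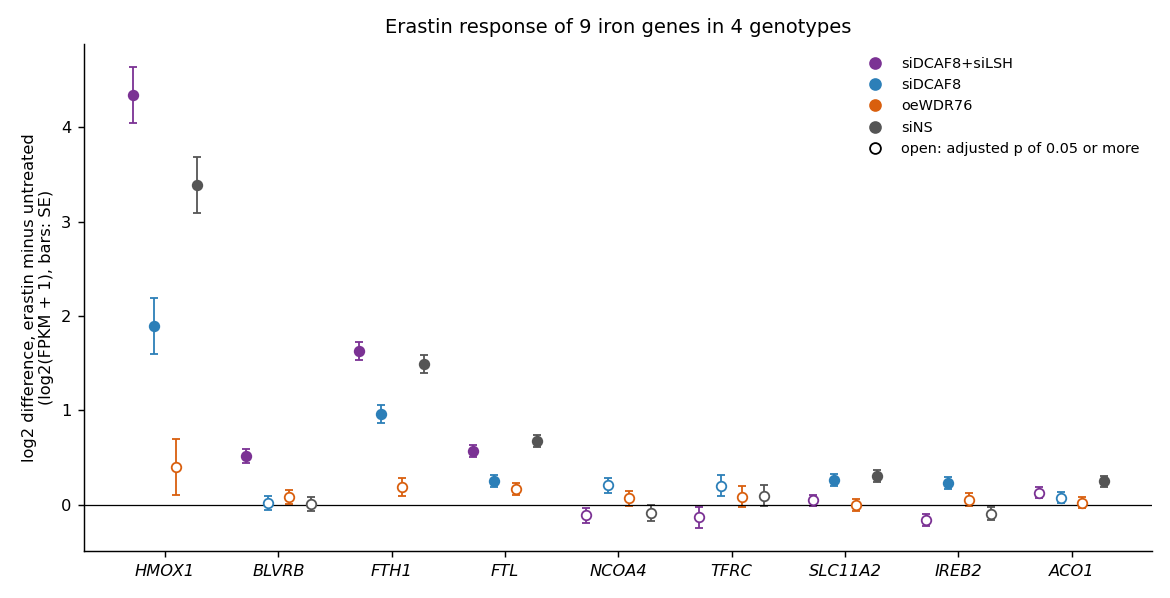
log2 difference, erastin minus untreated, of 9 iron genes in 4 genotypes, with SE bars; filled points passed adjusted p under 0.05 in limma and open points did not. HMOX1 lies at 4.34, 1.90, 0.40 and 3.39 in siDCAF8+siLSH, siDCAF8, oeWDR76 and siNS cells, and FTH1 at 1.63, 0.96, 0.19 and 1.49.

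FTH1 (chr11:61964285-61967660), the ferritin heavy chain, which oxidises ferrous iron, rose more than FTL. The siDCAF8+siLSH/Erastin libraries held 1506 and 1670 FPKM, against 506 and 516 FPKM in siDCAF8+siLSH libraries (log2 1.63, SE 0.10, limma adjusted p = 5.49e-08). The siDCAF8/Erastin libraries held 1093 and 819 FPKM, against 506 and 468 FPKM in siDCAF8 libraries (log2 0.96, SE 0.10, adjusted p = 1.86e-06). With erastin, siDCAF8 cells thus reached the level of siNS cells without it, with which they overlapped. The oeWDR76/Erastin libraries held 1114 and 1168 FPKM, against 1028 and 977 FPKM in oeWDR76 libraries (log2 0.19, SE 0.10, adjusted p = 0.412). The siNS/Erastin libraries held 2618 and 2951 FPKM, the highest of any group, against 987 and 989 FPKM in siNS libraries (log2 1.49, SE 0.10, adjusted p = 2.11e-08). The response differed from that of siNS cells by -0.53 in siDCAF8 cells (adjusted p = 0.0110, and 0.0638 when genes of low level were kept) and by -1.30 in oeWDR76 cells (adjusted p = 6.31e-05), and it was 0.67 larger in siDCAF8+siLSH than in siDCAF8 cells (adjusted p = 0.00481).

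FTL (chr19:48965309-48966879), the light chain that supports the iron core, rose in the same 3 genotypes. It read 1811 and 1654 FPKM in siDCAF8+siLSH/Erastin libraries, against 1078 and 1267 FPKM in siDCAF8+siLSH libraries (log2 0.57, SE 0.06, limma adjusted p = 1.53e-05). It read 1553 and 1504 FPKM in siDCAF8/Erastin libraries, against 1298 and 1266 FPKM in siDCAF8 libraries (log2 0.25, SE 0.06, adjusted p = 0.00469), a call lost under quantile normalization (0.09, adjusted p = 0.255). No library of an untreated group reached the lowest erastin library of its genotype. In oeWDR76/Erastin libraries it read 2152 and 2054 FPKM, against 1893 and 1871 FPKM in oeWDR76 libraries (log2 0.16, adjusted p = 0.265). In siNS/Erastin libraries it read 2456 and 2429 FPKM, against 1503 and 1549 FPKM in siNS libraries (log2 0.68, SE 0.06, adjusted p = 9.70e-07). The FTL response differed from that of siNS cells by -0.43 in siDCAF8 cells (adjusted p = 0.00377) and by -0.52 in oeWDR76 cells (adjusted p = 0.00156). It was 0.31 larger in siDCAF8+siLSH than in siDCAF8 cells (adjusted p = 0.0214), but 0.15 after the GC and length correction (adjusted p = 0.339). That call was also lost at 0.20 without siDCAF8+siLSH replicate 1 (adjusted p = 0.0545) and at 0.25 without siDCAF8+siLSH/Erastin replicate 1 (adjusted p = 0.0955). It was lost at 0.29 both without siDCAF8 replicate 1 (adjusted p = 0.0784) and without siDCAF8/Erastin replicate 2 (adjusted p = 0.0662). The response of siDCAF8+siLSH cells differed from that of siNS cells by -0.11 (adjusted p = 0.383), and by -0.23 without siDCAF8+siLSH replicate 1 (adjusted p = 0.0311). GENCODE v29 names 25 FTH1 and 16 FTL pseudogenes, and how the authors assigned shared reads is not stated, so the levels of both chains are uncertain to that extent.

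The ratio of heavy to light chain RNA, which does not depend on how libraries are scaled, was higher with erastin in 3 of 4 genotypes. Its geometric mean was 0.916 in siDCAF8+siLSH/Erastin and 0.437 in siDCAF8+siLSH libraries, and 0.619 in siDCAF8/Erastin and 0.380 in siDCAF8 libraries. In oeWDR76/Erastin and oeWDR76 libraries it was 0.542 and 0.532, and these overlapped. In siNS/Erastin libraries it was 1.14, so heavy chain exceeded light chain RNA there, against 0.648 in siNS libraries. Over the 4 genotypes the ratio was higher with erastin by 0.65 log2 units (two-sided exact permutation test within genotypes, p = 0.00463, n = 2 libraries a group). Within genotypes the difference was 1.07 in siDCAF8+siLSH, 0.71 in siDCAF8, 0.03 in oeWDR76 and 0.81 in siNS cells. Effects of GC content and length need not cancel in the ratio, since FTH1 has 50.1% GC and 1229 bases and FTL 56.3% and 871. The ratio itself was not tested after that correction. Corrected erastin differences of FTH1 and FTL were 1.65 and 0.54 in siDCAF8+siLSH and 1.01 and 0.39 in siDCAF8 cells. They were 0.20 and 0.18 in oeWDR76 and 1.56 and 0.78 in siNS cells.

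**Figure D3:**
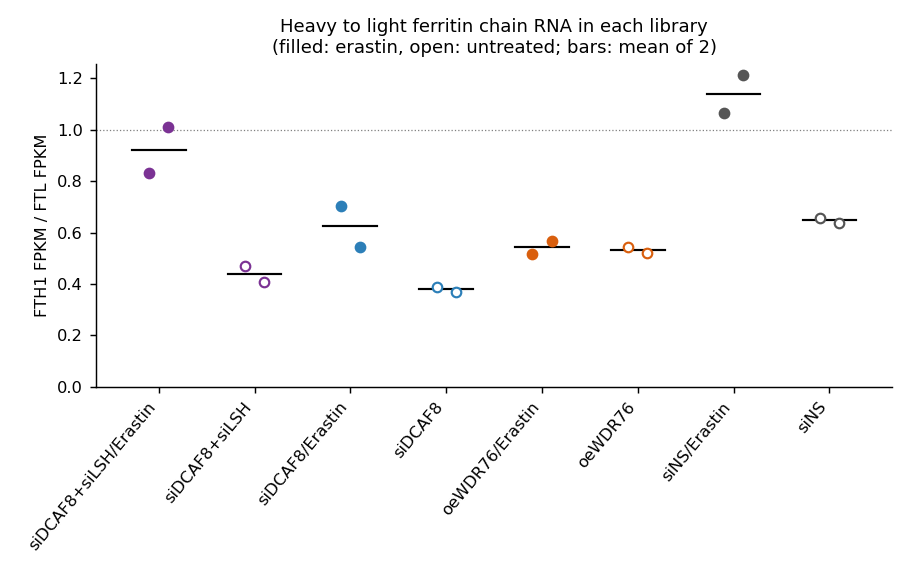
FTH1 FPKM divided by FTL FPKM in each of 16 libraries, filled with erastin and open without; bars are means of 2 and the dotted line marks equal levels. The siNS/Erastin mean is above 1, the oeWDR76/Erastin and oeWDR76 libraries overlap, and the other genotypes do not overlap with their untreated libraries.

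NCOA4 (chr10:46005088-46030714), the cargo receptor that carries ferritin to autophagy, did not pass the erastin test in any genotype. Its differences were -0.12 in siDCAF8+siLSH, 0.20 in siDCAF8, 0.06 in oeWDR76 and -0.09 in siNS cells. That of siDCAF8 cells lay near the threshold (limma adjusted p = 0.0548). It passed with median-ratio scaling (adjusted p = 0.0383), at 0.26 without siDCAF8 replicate 2 (adjusted p = 0.0492) and at 0.27 without replicate 2 of siDCAF8/Erastin (adjusted p = 0.0431). NCOA4 stood at 82.7 and 74.9 FPKM in siDCAF8/Erastin libraries, against 65.4 and 71.2 FPKM in siDCAF8 libraries.

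The uptake genes moved little with erastin. TFRC (chr3:196049284-196082161), the transferrin receptor, differed by -0.14 in siDCAF8+siLSH, 0.20 in siDCAF8, 0.08 in oeWDR76 and 0.09 in siNS cells, none of which passed. The siDCAF8 difference (adjusted p = 0.160) passed with quantile normalization (0.29, adjusted p = 0.0355), when only the groups compared were fitted (adjusted p = 0.0406) and when the oeWDR76 libraries were left out of the fit (adjusted p = 0.0266), the last an alternative chosen after seeing the data. SLC11A2 (chr12:50979783-51028275), which encodes DMT1, read 20.9 and 20.8 FPKM in siDCAF8/Erastin libraries, against 16.7 and 17.7 FPKM in siDCAF8 libraries (log2 0.26, limma adjusted p = 0.00262). It read 27.5 and 26.6 FPKM in siNS/Erastin libraries, against 22.8 and 20.7 FPKM in siNS libraries (log2 0.30, adjusted p = 0.000932). In siDCAF8+siLSH and oeWDR76 cells it differed by 0.04 and -0.01 and did not pass. Its response differed from that of siNS cells by -0.26 in siDCAF8+siLSH cells (adjusted p = 0.0344) and by -0.31 in oeWDR76 cells (adjusted p = 0.0239). Leaving out siNS replicate 2 ended those calls, at -0.19 (adjusted p = 0.162) and -0.24 (adjusted p = 0.112), and so did leaving out siNS/Erastin replicate 1, at -0.24 (adjusted p = 0.0925) and -0.29 (adjusted p = 0.0775). The siDCAF8+siLSH call was also lost without siDCAF8+siLSH replicate 1 (-0.24, adjusted p = 0.0818), siDCAF8+siLSH/Erastin replicate 1 (-0.25, adjusted p = 0.0840) or replicate 2 (-0.27, adjusted p = 0.0689), or siNS/Erastin replicate 2 (-0.28, adjusted p = 0.0533). The oeWDR76 call was also lost without oeWDR76 replicate 2 (-0.28, adjusted p = 0.0898), or oeWDR76/Erastin replicate 1 (-0.31, adjusted p = 0.0638) or replicate 2 (-0.31, adjusted p = 0.0680).

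The iron regulatory proteins are encoded by IREB2 (chr15:78438176-78501456), which is controlled by its own degradation, and ACO1 (chr9:32384603-32450836), which is a cytosolic aconitase when it carries an iron-sulfur cluster. IREB2 read 20.9 and 21.2 FPKM in siDCAF8/Erastin libraries, against 16.9 and 18.7 FPKM in siDCAF8 libraries (log2 0.23, limma adjusted p = 0.0110). That call was lost with the GC and length correction (0.05, adjusted p = 0.497), without siDCAF8 replicate 1 (0.16, adjusted p = 0.138) and without siDCAF8/Erastin replicate 2 (0.22, adjusted p = 0.0556), and IREB2 is the least GC-rich of the 9, at 38.4%. Its response in siDCAF8 cells was 0.33 above that of siNS cells (adjusted p = 0.0207), and that of siDCAF8+siLSH cells differed from that of siDCAF8 cells by -0.39 (adjusted p = 0.0100). These were 0.18 (adjusted p = 0.125) and -0.16 (adjusted p = 0.327) after the correction, and without siDCAF8 replicate 1 they were 0.26 (adjusted p = 0.0977) and -0.32 (adjusted p = 0.0541). The difference from siNS cells was also lost without siDCAF8/Erastin replicate 2 (0.32, adjusted p = 0.0539), siNS replicate 1 (0.31, adjusted p = 0.0718) or siNS/Erastin replicate 1 (0.30, adjusted p = 0.0811). ACO1 passed in siNS cells, at 25.5 and 26.02 FPKM in siNS/Erastin libraries, against 21.2 and 21.9 FPKM in siNS libraries (log2 0.25, adjusted p = 0.00275). Its differences of 0.13 in siDCAF8+siLSH, 0.07 in siDCAF8 and 0.02 in oeWDR76 cells did not pass, but the first passed after the GC and length correction (0.14, adjusted p = 0.0499). The ACO1 response of oeWDR76 cells differed from that of siNS cells by -0.23 (adjusted p = 0.0678), and passed after the correction (-0.24, adjusted p = 0.0272).

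**Figure D4:**
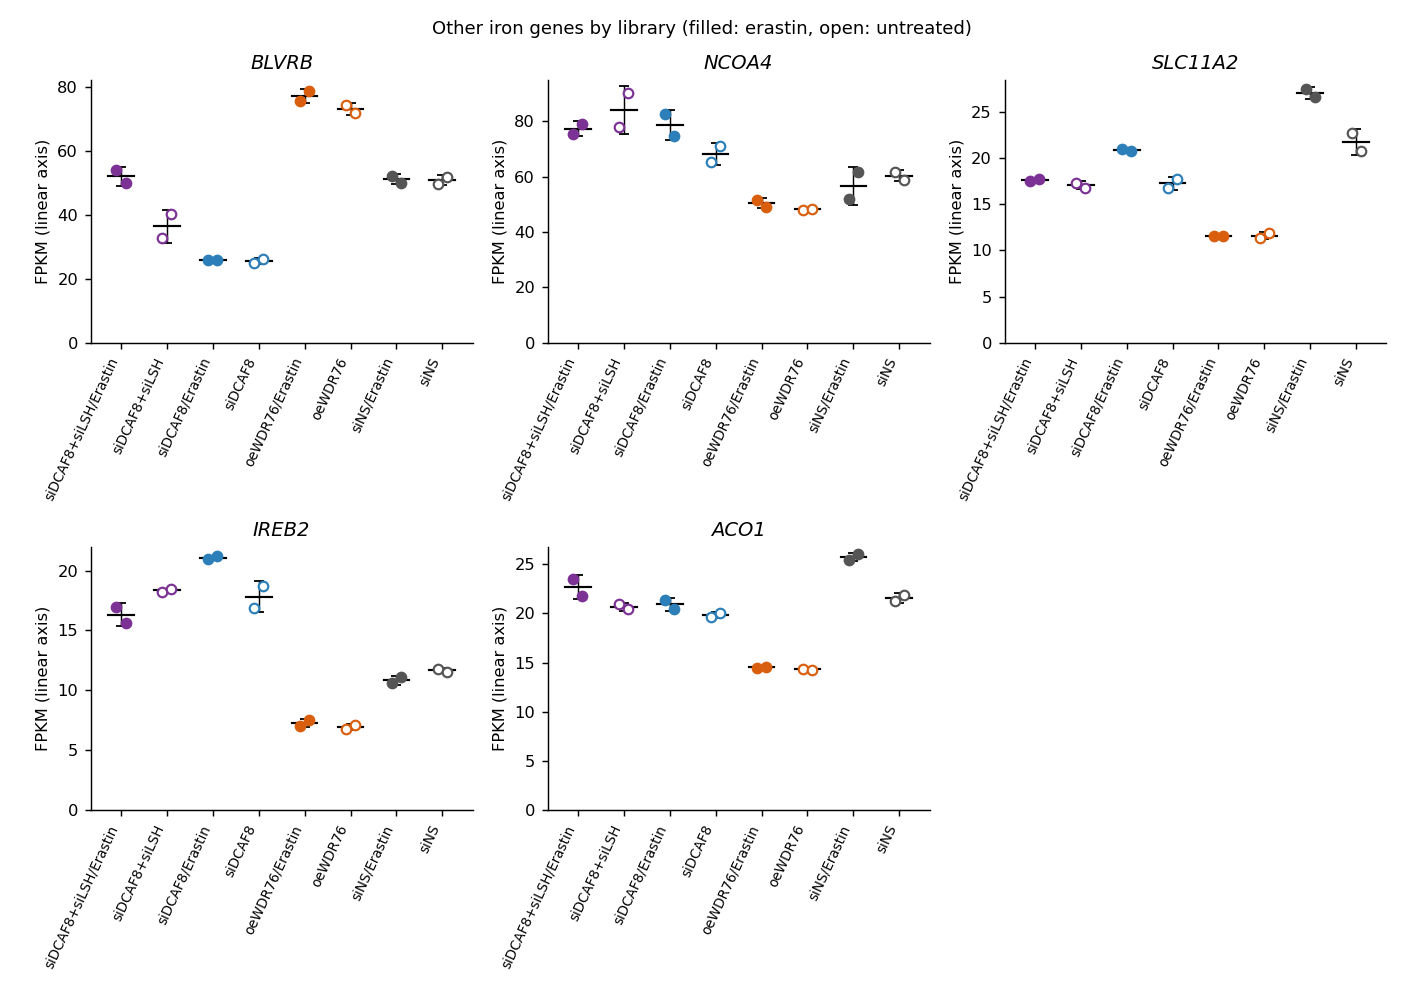
FPKM of BLVRB, NCOA4, SLC11A2, IREB2 and ACO1 (linear axes) in each of 16 libraries, filled with erastin and open without; bars are the mean and SD of 2. The 4 oeWDR76 libraries are lowest for SLC11A2, IREB2 and ACO1 and highest for BLVRB, whose difference from siNS is gone after GC and length correction.

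In each comparison of a genotype with siNS cells, 6 to 9 of the 9 genes passed. In siDCAF8+siLSH against siNS cells with erastin, 2 of 9 were higher and 4 lower (all genes: 66.0% passed, 39.3% higher and 26.7% lower), and without erastin 3 were higher and 4 lower (66.8%, 35.9% and 30.9%). In siDCAF8 against siNS cells with erastin, 3 were higher and 6 lower (64.8%, 34.8% and 30.0%), and without it 2 were higher and 4 lower (61.0%, 31.0% and 29.9%). In oeWDR76 against siNS cells with erastin, 1 was higher and 7 lower (76.2%, 45.2% and 31.0%), and without it 2 were higher and 5 lower (73.6%, 41.6% and 32.0%). With erastin, median-ratio scaling turned the split of siDCAF8+siLSH against siNS cells into 3590 genes higher and 3726 lower (4423 and 3011 as given). So most genes passed in these comparisons, and a count of iron genes near those shares says nothing about the iron genes alone. The comparisons share the siNS libraries, so each is given by its own values.

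TFRC fell most of the 9 in oeWDR76 cells. It read 20.4 and 26.6 FPKM in oeWDR76/Erastin libraries, against 261 and 276 FPKM in siNS/Erastin libraries, which is 11.1-fold lower (log2 -3.47, SE 0.11, limma adjusted p = 1.05e-13). It read 19.04 and 25.3 FPKM in oeWDR76 libraries, against 257 and 246 FPKM in siNS libraries, which is 11-fold lower (log2 -3.46, SE 0.11, adjusted p = 9.66e-14). By size this was the 4th fall of 11260 genes with erastin and the 2nd without. The GC and length correction left it at -3.26 with erastin and -3.24 without. The 5 genes outside the 10 whose 8 group means of log2(FPKM + 1) were most like those of TFRC were VPS13B, TTC3, RBM27, ASH1L and PRRC2C, with Pearson's r of 0.997, 0.996, 0.996, 0.995 and 0.995. The longest transcripts of these 5 had 6542 to 14100 bases and 39.8% to 45.3% GC, and that of TFRC had 5224 bases and 41.4% GC, beside medians of 3196 bases and 49.2% GC over the genes tested. The part of transcript length or GC content in this likeness was not tested.

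SLC11A2, IREB2 and ACO1 were also lower in oeWDR76 cells, in which no library of these genes reached the lowest siNS library. SLC11A2 differed by -1.16 with erastin (SE 0.06, limma adjusted p = 3.19e-11) and by -0.85 without (SE 0.06, adjusted p = 1.64e-09). It read 11.6 and 11.5 FPKM in oeWDR76/Erastin and 11.3 and 11.9 FPKM in oeWDR76 libraries. ACO1 differed by -0.79 with erastin (adjusted p = 1.47e-09) and -0.56 without (adjusted p = 1.17e-07). IREB2, at 7 and 7.51 FPKM in oeWDR76/Erastin and 6.79 and 7.13 FPKM in oeWDR76 libraries, differed by -0.52 (adjusted p = 1.80e-06) and -0.67 (adjusted p = 9.88e-08). The GC and length correction moved IREB2 to -0.17 (adjusted p = 0.0167) and -0.30, still called.

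Ferritin and BLVRB in oeWDR76 cells depended on that correction. BLVRB read 75.7 and 78.9 FPKM in oeWDR76/Erastin libraries, against 52.2 and 50.1 FPKM in siNS/Erastin libraries (log2 0.59, limma adjusted p = 1.71e-06), but -0.08 after GC and length correction (adjusted p = 0.304). Without erastin it was 0.52 higher (adjusted p = 8.12e-06), but -0.02 after the correction (adjusted p = 0.785). FTL without erastin was 0.30 higher (adjusted p = 0.000386), but -0.12 after the correction (adjusted p = 0.0644). FTH1 without erastin differed by 0.02 (adjusted p = 0.859), and by -0.28 after the correction (adjusted p = 0.0141) and -0.25 with quantile normalization (adjusted p = 0.0206). With erastin both chains were lower than in siNS/Erastin cells, FTH1 by -1.28 (adjusted p = 2.33e-09) and FTL by -0.22 (adjusted p = 0.00531), and HMOX1 by -2.83 (adjusted p = 1.74e-07). FTL was at -0.72 after the correction, and at -0.18 without oeWDR76/Erastin replicate 2 (adjusted p = 0.0503). HMOX1 without erastin differed by 0.16 (adjusted p = 0.641), which passed when only the groups compared were fitted (adjusted p = 0.0297). After the correction HMOX1 was at -0.25 (adjusted p = 0.494). NCOA4 was lower without erastin (-0.32, adjusted p = 0.00197), and with it differed by -0.16 (adjusted p = 0.0772), or by -0.28 without siNS/Erastin replicate 1 (adjusted p = 0.00841) and -0.27 with median-ratio scaling (adjusted p = 0.00553).

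**Figure D5:**
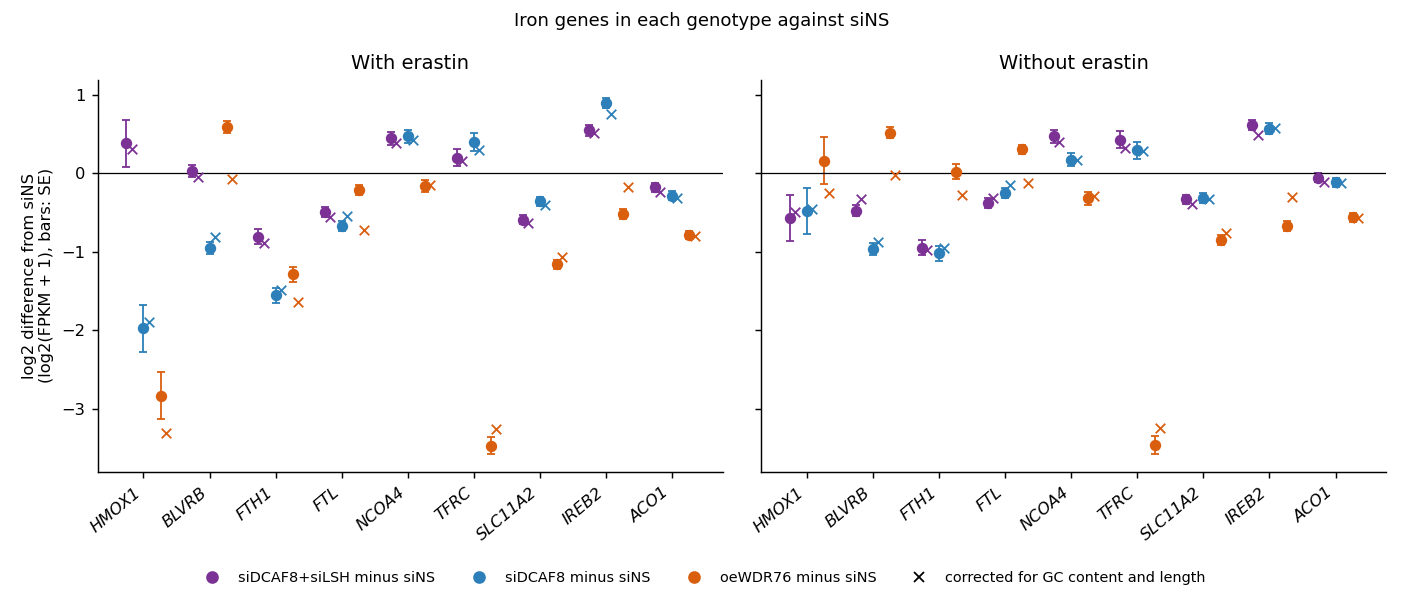
log2 difference from siNS of 9 iron genes with erastin (left) and without (right) for siDCAF8+siLSH, siDCAF8 and oeWDR76 cells; bars are SE and crosses are values after GC and length correction. TFRC lies at -3.47 and -3.46 in oeWDR76 cells. The oeWDR76 points of BLVRB, and of HMOX1, FTH1 and FTL without erastin, cross 0 after the correction.

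In siDCAF8 cells, ferritin, BLVRB and SLC11A2 were lower than in siNS cells and IREB2 and TFRC higher, whether or not erastin was given. FTH1 differed by -1.55 on the log2 scale with erastin (SE 0.10, limma adjusted p = 8.24e-10) and by -1.02 without (SE 0.10, adjusted p = 1.33e-07), and FTL by -0.68 (adjusted p = 1.07e-07) and -0.25 (adjusted p = 0.00258). BLVRB read 25.9 and 25.9 FPKM in siDCAF8/Erastin libraries, against 52.2 and 50.1 FPKM in siNS/Erastin libraries (log2 -0.96, adjusted p = 1.17e-08). Without erastin it read 24.8 and 26.3 FPKM in siDCAF8 libraries, against 49.7 and 51.9 FPKM in siNS libraries (log2 -0.97, adjusted p = 1.49e-08). SLC11A2 differed by -0.36 with erastin (adjusted p = 5.91e-05) and -0.32 without (adjusted p = 0.000235).

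IREB2 read 20.9 and 21.2 FPKM in siDCAF8/Erastin libraries, against 10.6 and 11.1 FPKM in siNS/Erastin libraries (log2 0.90, SE 0.07, limma adjusted p = 6.43e-09). It read 16.9 and 18.7 FPKM in siDCAF8 libraries, against 11.8 and 11.5 FPKM in siNS libraries (log2 0.57, SE 0.07, adjusted p = 1.52e-06). The groups did not overlap in either case. TFRC was higher by 0.40 with erastin (adjusted p = 0.00473) and by 0.29 without (adjusted p = 0.0321). The untreated TFRC call was lost without siDCAF8 replicate 2 (0.20, adjusted p = 0.225), siNS replicate 1 (0.32, adjusted p = 0.0682) or siNS replicate 2 (0.26, adjusted p = 0.135), and when genes of low level were kept (adjusted p = 0.106). HMOX1 differed by -1.97 with erastin (adjusted p = 1.98e-05) and by -0.48 without (adjusted p = 0.171), which passed when only the groups compared were fitted (adjusted p = 2.61e-05). NCOA4 was higher by 0.47 (adjusted p = 8.07e-05) and ACO1 differed by -0.29 (adjusted p = 0.000267) with erastin. Without it NCOA4 differed by 0.17 (adjusted p = 0.0714) and passed when only the groups compared were fitted (adjusted p = 0.0291). ACO1 differed by -0.12 without erastin (adjusted p = 0.0848) and passed with GC and length correction (adjusted p = 0.0370), quantile normalization (adjusted p = 0.0402) or genes of low level kept (adjusted p = 0.0446).

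In siDCAF8+siLSH cells without erastin, ferritin, BLVRB and SLC11A2 were lower than in siNS cells and IREB2, NCOA4 and TFRC higher. FTH1 differed by -0.95 (limma adjusted p = 1.96e-07), BLVRB by -0.47 (adjusted p = 2.83e-05), FTL by -0.38 (adjusted p = 4.81e-05) and SLC11A2 by -0.33 (adjusted p = 0.000121). IREB2 was 0.61 higher (adjusted p = 4.84e-07), NCOA4 0.47 higher (adjusted p = 7.51e-05) and TFRC 0.43 higher (adjusted p = 0.00268). HMOX1 differed by -0.57 (adjusted p = 0.0994), which passed when only the groups compared were fitted (adjusted p = 0.000113). With erastin, FTH1 differed by -0.81 (adjusted p = 1.40e-06), SLC11A2 by -0.59 (adjusted p = 2.52e-07) and FTL by -0.50 (adjusted p = 3.34e-06). IREB2 was 0.55 higher (adjusted p = 1.94e-06) and NCOA4 0.44 higher (adjusted p = 0.000132). ACO1 differed by -0.18 (adjusted p = 0.0108), a call lost without siDCAF8+siLSH/Erastin replicate 2 (-0.13, adjusted p = 0.123) or siNS/Erastin replicate 2 (-0.16, adjusted p = 0.0580). HMOX1 differed by 0.38 (adjusted p = 0.271), and by 0.94 without siNS/Erastin replicate 2 (adjusted p = 0.00987). TFRC differed by 0.20 (adjusted p = 0.123), and passed when only the groups compared were fitted (adjusted p = 0.00566).

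The comparison of siDCAF8+siLSH with siDCAF8 cells asks what the added siLSH did, but these groups also differed in DCAF8, which was higher in siDCAF8+siLSH cells by 0.54 with erastin (limma adjusted p = 4.54e-05) and by 0.37 without (adjusted p = 0.00156). WDR76 was higher there too, by 0.47 with erastin (adjusted p = 0.00193) and by 0.48 without (adjusted p = 0.00162). The parts of siLSH and of the DCAF8 and WDR76 levels cannot be told apart. With erastin 4 of 9 were higher and 2 lower, where 49.7% of all genes passed (30.4% higher and 19.3% lower), and without it 2 were higher and 0 lower, against 48.2% (26.4% higher and 21.7% lower). With median-ratio scaling the split of all genes with erastin was 2725 higher and 2774 lower (3424 and 2176 as given). HMOX1 was 5.12-fold higher in siDCAF8+siLSH/Erastin than in siDCAF8/Erastin libraries (log2 2.36, SE 0.30, limma adjusted p = 7.69e-06), BLVRB 1.97-fold (log2 0.98, SE 0.07, adjusted p = 4.16e-08) and FTH1 1.68-fold (log2 0.74, SE 0.10, adjusted p = 8.85e-06). BLVRB read 54.2 and 50.1 FPKM in siDCAF8+siLSH/Erastin libraries, against 25.9 and 25.9 FPKM in siDCAF8/Erastin libraries, and overlapped with siNS/Erastin cells. FTL was higher by 0.18 (adjusted p = 0.0266), but -0.02 after GC and length correction (adjusted p = 0.803) and 0.12 with median-ratio scaling (adjusted p = 0.145). The FTL call was also lost at 0.11 without siDCAF8+siLSH/Erastin replicate 1 (adjusted p = 0.247), at 0.16 without siDCAF8/Erastin replicate 2 (adjusted p = 0.132) and at 0.20 without replicate 1 of that group (adjusted p = 0.0519). IREB2 differed by -0.35 (adjusted p = 0.000365) and SLC11A2 by -0.23 (adjusted p = 0.00403). TFRC differed by -0.20 (adjusted p = 0.149), and passed with quantile normalization (-0.32, adjusted p = 0.0163) or when only the groups compared were fitted (adjusted p = 0.0107). Without erastin, BLVRB was 0.49 higher (adjusted p = 5.85e-05) and NCOA4 0.29 higher (adjusted p = 0.00667), a call lost without siDCAF8+siLSH replicate 2 (0.19, adjusted p = 0.114) or siDCAF8 replicate 1 (0.24, adjusted p = 0.0778). FTL without erastin differed by -0.13 (adjusted p = 0.0922), and passed at -0.26 with quantile normalization (adjusted p = 0.00277), at -0.17 with GC and length correction (adjusted p = 0.0254) and at -0.25 without siDCAF8+siLSH replicate 2 (adjusted p = 0.00310).

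Counted over the 9 genes, the erastin response of siDCAF8 cells differed from that of siNS cells in 4 (1 higher, 3 lower), where 20.8% of all genes passed (11.0% higher and 9.84% lower). That of oeWDR76 cells differed from siNS cells in 4, all lower (14.1%, 9.04% and 5.11%). That of siDCAF8+siLSH cells differed from siNS cells in 2, 1 each way (24.8%, 15.6% and 9.13%). Against siDCAF8 cells the siDCAF8+siLSH response differed in 5, 4 of them higher (23.5%, 14.2% and 9.24%). With GC and length correction that last comparison gave 108 genes higher and 141 lower, against 1602 and 1040 as given. With median-ratio scaling the split of all genes was 1330 and 1332 there, 793 and 778 in oeWDR76 against siNS cells (1018 and 575 as given), and 1425 and 1352 in siDCAF8+siLSH against siNS cells (1762 and 1028 as given).

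Other genes of the pathway were taken as 7 lists with 85 genes tested, and are given by counts and medians, with values of some single genes. These counts are to be read beside the shares of all genes with erastin, 10.6% higher and 9.54% lower in siDCAF8+siLSH, 18.3% and 22.5% in siDCAF8, and 15.1% and 22.4% in siNS cells. With erastin in siNS cells, 6 of 11 genes of heme transport and breakdown rose and 1 fell (median 0.20 log2, beside -0.03 over all genes). SLC48A1, which moves heme out of endosomes and lysosomes, averaged 13.1 ± 0.438 FPKM in siNS/Erastin and 8.76 ± 0.559 FPKM in siNS libraries (log2 0.54, limma adjusted p = 0.000101). POR, the electron donor of heme oxygenase, rose by 0.32, and FLVCR2, of a family of heme and choline transporters, fell by 0.59. In siDCAF8+siLSH cells 3 of 11 rose and 1 fell, with SLC48A1 higher by 0.56 and POR by 0.47, and in siDCAF8 cells 3 rose and 1 fell. BACH1, the heme-binding repressor of HMOX1 and the ferritin genes, rose by 0.30 in siDCAF8 cells.

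Of 11 heme synthesis genes, 5 fell and 0 rose with erastin in siNS cells (median -0.15), where 15.1% of all genes rose and 22.4% fell. UROD, uroporphyrinogen decarboxylase, averaged 43.3 ± 0.898 FPKM in siNS/Erastin and 58.3 ± 4.12 FPKM in siNS libraries (log2 -0.42, limma adjusted p = 6.60e-05), and ALAD and PPOX, which act in the same route, fell by 0.33 and 0.44. In siDCAF8+siLSH cells 1 of 11 rose and 0 fell, and FECH, which inserts iron into the ring, rose by 0.28. In siDCAF8 cells 2 rose and 3 fell. Of 9 genes of iron import and endosomal release, 2 fell in siNS cells, a share near that of all genes, the ferrireductase STEAP3 by 0.42 and the endolysosomal channel MCOLN1 by 0.38. Both also fell in siDCAF8 cells, by 0.36 and 0.37, where 2 of 9 rose. Of 6 chaperones, export and control genes, 2 rose and 1 fell in siNS cells. Among them the iron chaperone PCBP1 rose by 0.20, while PCBP2 differed by -0.15 (limma adjusted p = 0.0330). FBXL5, the iron-sensing ligase subunit that degrades IREB2 protein, rose by 0.43 in siDCAF8 cells.

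Among 16 autophagy genes around ferritin breakdown, 2 rose and 1 fell in siNS cells, 4 rose and 0 fell in siDCAF8+siLSH cells, and 4 rose and 1 fell in siDCAF8 cells. SQSTM1, an autophagy receptor, averaged 395 ± 5.98 FPKM in siDCAF8+siLSH/Erastin and 192 ± 18.0 FPKM in siDCAF8+siLSH libraries (log2 1.04, limma adjusted p = 2.33e-07). It rose by 1.30 in siNS cells (adjusted p = 8.47e-09) and by 0.71 in siDCAF8 cells (adjusted p = 2.74e-06). In the direct test of siDCAF8+siLSH against siNS responses, 0 of the 16 genes were called lower. The smaller SQSTM1 estimate in siDCAF8+siLSH than in siNS cells thus did not pass there. In oeWDR76 cells the SQSTM1 difference of 0.21 did not pass (adjusted p = 0.197). The receptor TAX1BP1 rose by 0.42 in siDCAF8 cells. Of 23 genes of mitochondrial iron and iron-sulfur clusters, 1 rose and 7 fell in siNS cells (all genes: 15.1% rose and 22.4% fell), with the cluster carrier NFU1 lower by 0.50 and the co-chaperone HSCB by 0.39. In siDCAF8+siLSH cells 2 rose and 2 fell, and the mitochondrial iron importer SLC25A37 rose by 0.52. Of 9 genes of cytosolic cluster assembly, 2 fell in siNS cells, near the share of all genes, and 4 in siDCAF8 cells (all genes: 22.5% fell), where NUBP2 fell by 0.58. Other scalings moved these small counts. In siNS cells the mitochondrial genes gave 5 higher and 7 lower with GC and length correction, and the import genes 3 higher and 2 lower with quantile normalization. In siDCAF8 cells, with GC and length correction, cytosolic cluster assembly gave 2 higher and 3 lower and the mitochondrial genes 5 higher and 7 lower. With erastin in oeWDR76 cells 0 of the 85 passed in limma, a count near the share of all genes, of which 1.45% passed. Of the 85, 10 were at an unadjusted p under 0.05.

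Between oeWDR76 and siNS cells, 19 of 23 genes of mitochondrial iron and iron-sulfur clusters were higher and 2 lower with erastin (median 0.45, beside 0.11 over all genes, of which 45.2% were higher and 31.0% lower), and 16 were higher and 2 lower without (median 0.35, beside 0.07, with 41.6% of all genes higher and 32.0% lower). After GC and length correction these were 17 and 4 with erastin and 12 and 4 without. Other scalings moved the median of all genes in the comparison with erastin by -0.10 to -0.12, and with the correction 3923 genes were higher and 4092 lower, against 5086 and 3490 as given. The direction of heme synthesis genes without erastin depended on that correction, with a median of 0.13 as given and -0.12 after it.

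By the 8 group means of log2(FPKM + 1), HMOX1 was most like ACP5 (Pearson's r = 0.908), ME1 (0.906), GCLM (0.904), LOC102724428 (0.884) and ZDHHC9 (0.876) among tested genes outside the 10. FTH1 was most like BHLHE40 (0.971), DCAF10 (0.953), MINK1 (0.940), HSF2BP (0.929) and PDGFA (0.929). Among the 9 genes themselves, NCOA4 and IREB2 had r = 0.954, SLC11A2 and ACO1 0.943, FTH1 and FTL 0.892 and HMOX1 and FTH1 0.858, while IREB2 and BLVRB had -0.905. These describe 8 groups that share genotypes and treatments, and the GC content of IREB2 and BLVRB lies at the ends of the range of the 9.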

How the data were processed

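RNA of 16 HT-1080 libraries was extracted with Trizol, amplified with Smart-seq v4, made into libraries with a NEBNext Ultra DNA kit and sequenced for BGISEQ500, per the labels' protocols. The authors deposited FPKM per gene, rounded to 2 decimals. The submitters' processing notes name StringTie and GRCh38, and the version, aligner and annotation release are not stated. Of 24107 entries, 6555 were empty, and 28 symbols stored as dates were put back. FPKM totals ran from 436290 to 503867 per library. The depth is unknown, and no interval from counting is given.

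From these values log2(FPKM + 1) was fitted with limma 3.58.1 (R 4.3.3), with 1 model of 8 group means and a mean-variance trend. Genes with mean FPKM of at least 1 were tested (11260), and Benjamini-Hochberg adjustment was made in each of 16 comparisons, 12 of them between 2 groups and 4 between 2 erastin responses. The fit had 8 residual degrees of freedom. The ferritin ratio used a two-sided exact permutation test within genotypes. The fit was tested on simulated data. Alternatives were another pseudocount, filter or scaling, a GC and length correction (GC known for 11086 genes), a replicate block, fits without the other groups, and each library left out in turn. The members and lists were chosen with earlier results of these data known. All 10 genes are named, with up to 4 genes per list by lowest adjusted p in siNS and 2 in other genotypes, and the 5 most alike genes for HMOX1, FTH1 and TFRC. Of the 10, 9 passed the filter. One gene that this rule names is not reported here.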

Additional observations from a re-analysis of the deposited data

Results flagged for a closer look

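For 15 results the erastin response differed between genotypes in a direct test in limma, on the log2 scale with Benjamini-Hochberg adjusted p-values. Between siDCAF8 and siNS cells the responses differed for HMOX1 by -1.49 (adjusted p = 0.0194), FTH1 by -0.53 (adjusted p = 0.0110), FTL by -0.43 (adjusted p = 0.00377) and IREB2 by 0.33 (adjusted p = 0.0207). Between oeWDR76 and siNS cells they differed for HMOX1 by -2.99 (adjusted p = 0.000373), FTH1 by -1.30 (adjusted p = 6.31e-05), FTL by -0.52 (adjusted p = 0.00156) and SLC11A2 by -0.31 (adjusted p = 0.0239). Between siDCAF8+siLSH and siNS cells they differed for SLC11A2 by -0.26 (adjusted p = 0.0344) and BLVRB by 0.50 (adjusted p = 0.00292). Between siDCAF8+siLSH and siDCAF8 cells they differed for HMOX1 by 2.45 (adjusted p = 0.00242), FTH1 by 0.67 (adjusted p = 0.00481), FTL by 0.31 (adjusted p = 0.0214), IREB2 by -0.39 (adjusted p = 0.0100) and BLVRB by 0.49 (adjusted p = 0.00634). Some of these calls depended on the processing, as given above for each gene. With GC and length correction, the IREB2 difference between siDCAF8 and siNS cells no longer passed. Nor did those of FTL, IREB2 and BLVRB between siDCAF8+siLSH and siDCAF8 cells. Leaving out single libraries could end both SLC11A2 calls and both IREB2 calls. It could also end the HMOX1 call between siDCAF8 and siNS cells and the FTL call between siDCAF8+siLSH and siDCAF8 cells. The comparisons against siNS cells share the siNS libraries, and those with siDCAF8 cells share the siDCAF8 libraries.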

How the results depend on the processing

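Of 144 results (9 genes in 16 comparisons), 103 kept their side of the threshold and, where either value passed, their direction under every alternative run, 62 of the 80 that passed among them. Direction changed 6 times. Between oeWDR76 and siNS cells without erastin, FTH1 was at -0.28 with GC and length correction and -0.25 with quantile normalization, FTL at -0.123 and BLVRB at -0.0214 with the correction. With erastin BLVRB was at -0.0780, and FTL between siDCAF8+siLSH and siDCAF8 cells at -0.0188, both with the correction. The number of iron genes that passed changed by over 1.5 times in 5 comparisons. Erastin in oeWDR76 cells gave 1, not 0, when only the groups compared were fitted. The response of siDCAF8 against siNS cells gave 2, not 4, with no filter on low values, and 2 to 4 without single libraries. That of siDCAF8+siLSH against siNS cells gave 1, not 2, on only the groups compared or on the 12 libraries other than oeWDR76, an alternative chosen after seeing the data, and 1 to 2 without single libraries. That of siDCAF8+siLSH against siDCAF8 cells gave 8 with quantile normalization and 2 with GC and length correction, not 5, and 3 to 6 without single libraries. Untreated siDCAF8+siLSH against siDCAF8 cells gave 1 to 2 without single libraries, and 3, not 2, with GC and length correction or quantile normalization. The cause was not tested. Within groups replicate 1 minus replicate 2 correlated between groups at -0.208 to 0.389 (28 pairs), so the numbers were not read as pairs. With a replicate block 1 of the 144 calls changed, TFRC in siDCAF8+siLSH against siNS cells with erastin (0.20, adjusted p = 0.0495 in limma), and the ferritin ratio difference stayed at 0.65 (exact permutation p = 0.0156). Without single libraries that ratio difference was 0.61 to 0.70. Because the depth is unknown, precision rests on 2 libraries a group.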
